A study of Mus musculus with 26 samples.

Results

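Transcripts of mouse embryonic stem cells were compared for a difference in their change over 8 h between cells with a Mettl14 knockdown and cells with a scramble control. The comparison used 8 of the 26 arrays of the series, 2 in each of 4 groups: scramble at 0 h, scramble at 8 h, Mettl14 knockdown at 0 h and Mettl14 knockdown at 8 h. The value for each gene is the log2 change from 0 h to 8 h in the knockdown minus the log2 change in scramble, called the difference in change here. It is positive where the transcript fell less or rose more in the knockdown. The spread was estimated from all 18 arrays of the time course, which also holds 4 h arrays and a parallel Mettl3 knockdown. Of 14787 genes tested, 530 were called higher and 208 lower at a Benjamini-Hochberg adjusted p under 0.05 (limma). These are 3.58% and 1.41% of the genes tested. All groups were J1 cells, an established line of mouse embryonic stem cells, grown in serum with leukaemia inhibitory factor on irradiated embryonic fibroblasts. The labels give the control as wild type with scramble, and the replicates as biological. Both a lentiviral hairpin with puromycin selection and 2 rounds of small interfering RNA transfection are described, without a statement of which was used for each array. The labels name no agent for the 0, 4 and 8 h of incubation other than the scramble or hairpin RNA itself.

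METTL14 belongs to the nuclear writer of N6-methyladenosine (m6A), the most common internal mark of messenger RNA. METTL3 is its catalytic partner, METTL14 holds the RNA, and WTAP with further adaptors recruits the pair to transcripts. Reader proteins that bind the mark are known to shorten the life of many messenger RNAs, and the series concerns how the mark affects the stability of developmental regulators' transcripts. The change of a transcript over time reflects both its synthesis and its decay, and the arrays measure only its level.

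The labels list 3 target sequences of 19 bases for Mettl14 and 2 for Mettl3, the parallel knockdown. They are shown as the only targets the labels give, and are given for small interfering RNA, so whether they apply to the time course arrays is not stated.
Mettl14 target 1: ccggatgtacagaggaaat
Mettl14 target 2: gggaactcatcagactaaa
Mettl14 target 3: gcacctcggtcatttatat
Mettl3 target 1: ggactgcgatgtgattgta
Mettl3 target 2: gacgaattatcaataagca

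The Mettl14 transcript itself was checked first. Its log2 signal was 9.08 and 9.10 in scramble at 0 h and 9.14 and 9.12 at 8 h. In the knockdown it was 7.28 and 7.51 at 0 h and 6.39 and 6.56 at 8 h. Every knockdown array was below every scramble array, and the 8 h knockdown arrays were below the 0 h ones. The knockdown thus held 30.9% of the control level at 0 h and 15.9% at 8 h. Mettl14 was itself among the genes called lower, with a difference in change of -0.96 ± 0.19 (SE, adjusted p = 0.0139). That call was lost without replicate 2 of the knockdown at 0 h (adjusted p = 0.0594) and without replicate 1 of scramble at 0 h (adjusted p = 0.0522).

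Replicates of the 4 groups correlated across genes at r = 0.9938 to 0.9968. Of 8 stem cell markers, 7 lay between the 64.3 and 99.4 percentile of all genes, and Dppa5a lay at the 26.3 percentile. The summed linear signal of 25 markers of fibroblasts, the feeder cells, was 11300 in both scramble arrays at 0 h and 12900 to 13000 at 8 h. The knockdown arrays summed to 14900 to 15400 at 0 h and 18700 to 19100 at 8 h. Of the 7 markers that define these cells, Postn, Lum and Dcn were below the filter on dim genes. Col1a1, Col1a2, Col3a1 and Thy1 were measured, and their differences in change were 0.01, -0.02, -0.13 and -0.44 (not called). None of the 21 fibroblast markers tested was called, and the part of the feeder cells in the results below was not tested. In bulk RNA, fewer cells of a type and less RNA per cell cannot be told apart. The deposited normalization makes the arrays' distributions equal, so each change is relative to the average transcript.

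Most of the transcripts called higher declined in control cells and declined less when Mettl14 was reduced. Of the 530 genes, 425 fell in scramble, 28 rose and 77 had no call, where 21.6% of all genes fell and 39.2% rose. In the knockdown 224 of them fell, 146 rose and 160 had no call, where 19.4% of all genes fell and 36.8% rose. All 224 that fell in the knockdown had also fallen in scramble. That follows from the call, since a gene called higher that falls in the knockdown must fall more in scramble. The median change of the 530 was -0.61 in scramble and -0.09 in the knockdown, against 0.15 and 0.12 over all genes tested. Both changes are parts of the difference in change and are given beside it only. The genes called lower were mixed in control, where 54 had no call, and mostly fell in the knockdown. In scramble 71 of the 208 fell and 83 rose, with a median of 0.06, and in the knockdown 156 fell and 9 rose, with a median of -0.44. The difference in change reached 2-fold for 15 of the genes called higher and 7 of those called lower. The nearest genes within the threshold were Arhgef12 (0.37), Mlph (-0.56) and Thtpa (0.53), with adjusted p of 0.0495, 0.0496 and 0.0499. Just outside it lay Polr3d (0.35), Zfp940 (0.41) and Tspan11 (-0.51), with adjusted p of 0.0503, 0.0504 and 0.0504.

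**Figure D1:**
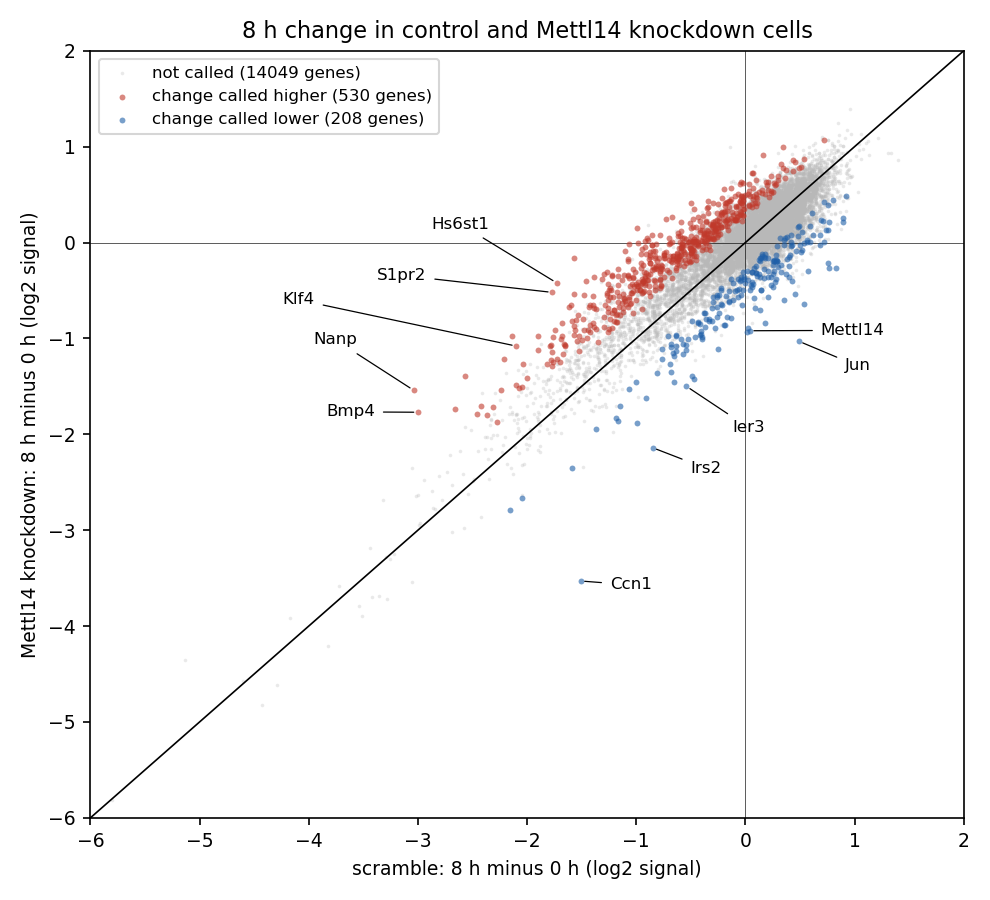
Each point is a gene, with its log2 change from 0 h to 8 h in scramble on the x axis and in Mettl14 knockdown on the y axis (means of 2 arrays per group); the line marks equal change. The 530 genes called higher (red) lie above the line and mostly at negative scramble changes, and the 208 called lower (blue) lie below it.

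The counts depended on how the spread was estimated, on single arrays and on scaling. They were 53 higher and 12 lower with the spread taken from the 8 arrays alone, 796 and 372 in a fit over all 26 arrays, 325 and 105 with array weights and 254 and 91 with no filter on dim genes. With the 8 arrays alone, the gene lists described here kept at most 2 members higher and 4 lower. Leaving out replicate 1 of scramble at 0 h left 242 genes higher and 85 lower. It was 274 and 95 without replicate 2 of that group, 280 and 92 without replicate 2 of scramble at 8 h, and 272 and 105 without replicate 2 of the knockdown at 0 h. Without replicate 2 of the knockdown at 8 h it was 279 and 190, and without replicate 1 of the knockdown at 0 h 133 were lower. A second quantile normalization within the time course gave 367 higher and 302 lower, so that 54.9% of calls were higher against 71.8% in the deposited scaling. Setting the median of a list of long-lived transcripts equal on every array gave 793 and 97, or 89.1% higher. That scaling moved the median change of all genes from 0.15 to -0.02 in scramble and from 0.12 to 0.03 in the knockdown.

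The 12 genes with the largest positive values fell into 2 kinds by where the knockdown started. Of these, 7 stood above control only, or more so, at 8 h, while Bmp4, Trib3, Tbx3, N4bp3 and Klf4 started far below control and ended near it. The clearest of the first kind was Hs6st1, which encodes a sulfotransferase of heparan sulfate chains. Its log2 signal in scramble was 10.38 and 10.53 at 0 h and 8.78 and 8.66 at 8 h. In the knockdown it was 10.31 and 10.35 at 0 h and 9.92 and 9.90 at 8 h. The groups were close at the start, and at 8 h both knockdown arrays lay above both scramble arrays. Scramble kept 30.2% of the 0 h level and the knockdown 74.9%, a difference in change of 1.31 ± 0.10 (adjusted p = 6.79e-05).

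S1pr2, a receptor for sphingosine 1-phosphate, followed the same course. Its signal in scramble was 9.70 and 9.71 at 0 h and 8.03 and 7.85 at 8 h, and in the knockdown 9.53 and 9.56, then 8.97 and 9.09. Control cells kept 29.4% and knockdown cells 69.9%, a difference of 1.25 ± 0.11 (adjusted p = 0.000238). Cdca4, a nuclear protein associated with cell division, kept 16.9% in scramble and 38.2% in the knockdown (1.18 ± 0.15, adjusted p = 0.00117). Rpp25l, related to a protein subunit of the RNA-processing enzymes RNase P and RNase MRP, kept 46.7% in scramble and 94.2% in the knockdown, where its 4 arrays at 0 and 8 h ran only from 8.87 to 8.99. Siah1a, a ubiquitin ligase subunit, went from 73.2% of control at 0 h to 165% at 8 h (1.17 ± 0.18, adjusted p = 0.0041). The largest value belonged to Nanp, a phosphatase of sialic acid synthesis, at 1.5 ± 0.33 (adjusted p = 0.0242). Its scramble arrays at 8 h read 4.90 and 4.85, below the lowest mean signal of any gene tested, 6. Its knockdown arrays at 8 h, 6.26 and 6.91, were above them but far apart from each other. The Nanp call was lost without any one of 4 arrays: replicate 2 of the knockdown at 8 h or at 0 h, replicate 2 of scramble at 8 h, or replicate 1 of scramble at 0 h (highest adjusted p = 0.0969).

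**Figure D2:**
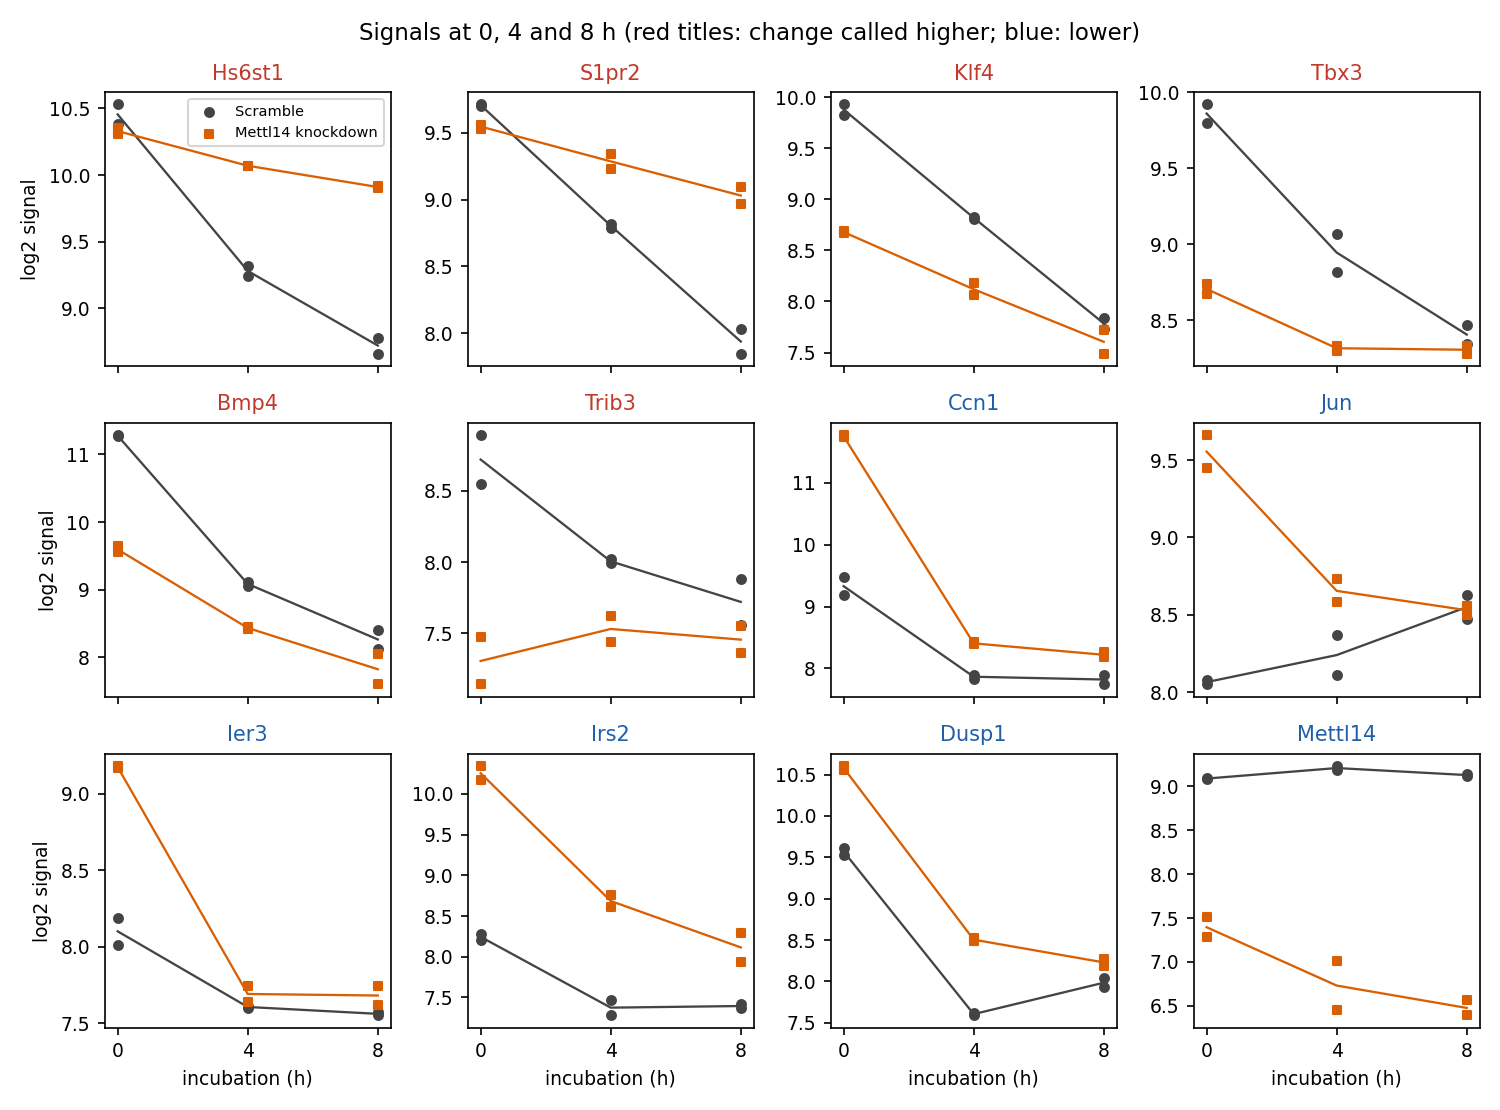
Log2 signal of 12 genes against incubation time (0, 4 and 8 h) in scramble (circles) and Mettl14 knockdown (squares); points are single arrays and lines join the means of 2. In Hs6st1 and S1pr2 the groups start together and separate, whereas in Klf4, Tbx3, Bmp4, Ccn1, Jun and Ier3 they start apart and draw together.

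The genes of the second kind converged with control. Bmp4, a signalling ligand that supports self-renewal together with leukaemia inhibitory factor, read 11.28 and 11.27 in scramble at 0 h and 8.41 and 8.12 at 8 h. In the knockdown it read 9.64 and 9.55 at 0 h and 7.6 and 8.05 at 8 h. The knockdown was lower at both times, at 31.3% of control first and 73.3% at the end, and the difference in change was 1.23 ± 0.19 (adjusted p = 0.0038). Trib3, a pseudokinase induced by the stress factor ATF4, read 7.14 and 7.47 at 0 h and 7.36 and 7.55 at 8 h in the knockdown, while scramble went from 8.55 and 8.89 to 7.56 and 7.88. The 8 h groups did not overlap but nearly met, and the value was 1.15 ± 0.23 (adjusted p = 0.0158). Its call was lost without replicate 2 of the knockdown at 8 h, replicate 1 of the knockdown at 0 h or replicate 2 of scramble at 0 h (highest adjusted p = 0.0625). N4bp3, a scaffold protein of neurons, went from 45.6% to 93.5% of control (1.04 ± 0.12, adjusted p = 0.000972).

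Pluripotency transcripts were the list with the largest number of members called higher after the zinc finger genes. Of 33 members tested, 10 were called higher and none lower (30.3%, against 3.58% of all genes), and the list's median was 0.17 against 0.01. The 10 were Pou5f1, Klf2, Klf4, Esrrb, Tbx3, Zfp42, Nr5a2, Fgf4, Tcl1 and Socs3. At 0 h, 26 of the 33 were lower and 1 was higher in the knockdown than in scramble, with a median of -0.53. At 8 h, 21 were lower and 3 higher, with a median of -0.32. Over all genes 20.1% were lower and 19.4% higher at 0 h, and 19.8% and 23.8% at 8 h. These 2 comparisons share arrays with the difference in change and are given beside it only. The number of members called ranged from 4 to 7 when any 1 of the 8 arrays was left out, and was 4 without replicate 1 of the knockdown at 0 h, replicate 2 of the knockdown at 8 h or replicate 2 of scramble at 8 h. It was 5 without replicate 2 of either group at 0 h, and 6 without replicate 1 of scramble at 0 h or of the knockdown at 8 h. With no filter on dim genes or with array weights 4 were called, and 2 with the spread taken from the 8 arrays alone.

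Among the naive state factors, Klf4 read 9.83 and 9.93 in scramble at 0 h and 7.84 and 7.73 at 8 h. Knockdown arrays read 8.69 and 8.67 at 0 h and 7.49 and 7.72 at 8 h. The groups were far apart at 0 h and close at 8 h, when the lower scramble array exceeded the higher knockdown array by a small margin. The knockdown kept 47.4% of its start and scramble 23.4%, a difference of 1.02 ± 0.14 (adjusted p = 0.00206). Tbx3, a T-box factor of the naive state, went in scramble from 9.92 and 9.80 to 8.47 and 8.34, and in the knockdown from 8.67 and 8.74 to 8.33 and 8.28. Control lost most of its excess, and the difference was 1.06 ± 0.12 (adjusted p = 0.000615). Klf2, a relative of Klf4, kept 26.8% in scramble and 46.1% in the knockdown (0.78 ± 0.12, adjusted p = 0.0038). Fgf4, the growth factor that primes stem cells for differentiation, behaved otherwise at the end: it was at 71.4% of control at 0 h and at 143% at 8 h. Its 8 h arrays read 9.11 and 8.79 in scramble and 9.41 and 9.52 in the knockdown, without overlap, and the value was 1.00 ± 0.13 (adjusted p = 0.00174).

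Pou5f1, which encodes OCT4, read 9.40 and 9.28 in scramble at 0 h and 8.60 and 8.59 at 8 h. It read 8.43 and 8.78 in the knockdown at 0 h and 8.44 and 8.55 at 8 h. Its value of 0.64 ± 0.16 lay near the threshold (adjusted p = 0.0435), and the call was lost without any single array other than replicate 2 of the knockdown at 0 h (highest adjusted p = 0.144, without replicate 1 of scramble at 0 h). Esrrb, an orphan nuclear receptor of the naive network, was at 0.49 ± 0.12 (adjusted p = 0.0342), and its call was lost without any single array other than replicate 1 of the knockdown at 8 h (highest adjusted p = 0.115, without replicate 1 of scramble at 0 h). Zfp42 was at 0.40, Socs3 at 0.48, Nr5a2 at 0.33 and Tcl1 at 0.33, with adjusted p of 0.0227, 0.0297, 0.0479 and 0.0484. Tcl1 differed from the rest, since it was higher at 8 h than at 0 h in both, at 146% of its start in scramble and 183% in the knockdown.

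Sox2 and Nanog, core factors of the same network, did not pass. Sox2 dropped steeply in both, to 15.5% of its start in scramble and 17.3% in the knockdown, with a difference of 0.16 ± 0.14 (adjusted p = 0.585). Nanog held its level in both and stayed at 60.9% and 62.6% of control at 0 h and 8 h (0.04 ± 0.07, adjusted p = 0.806). Myc dropped to 23.7% and 26.2% of its start (0.15 ± 0.19, adjusted p = 0.745). Mycn, which was not compared with Myc directly, kept 23.3% in scramble and 35.7% in the knockdown (0.61 ± 0.09, adjusted p = 0.00352). It was the only member called of 12 Myc family genes tested (8.33%, against 3.58% of all genes higher).

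**Figure D3:**
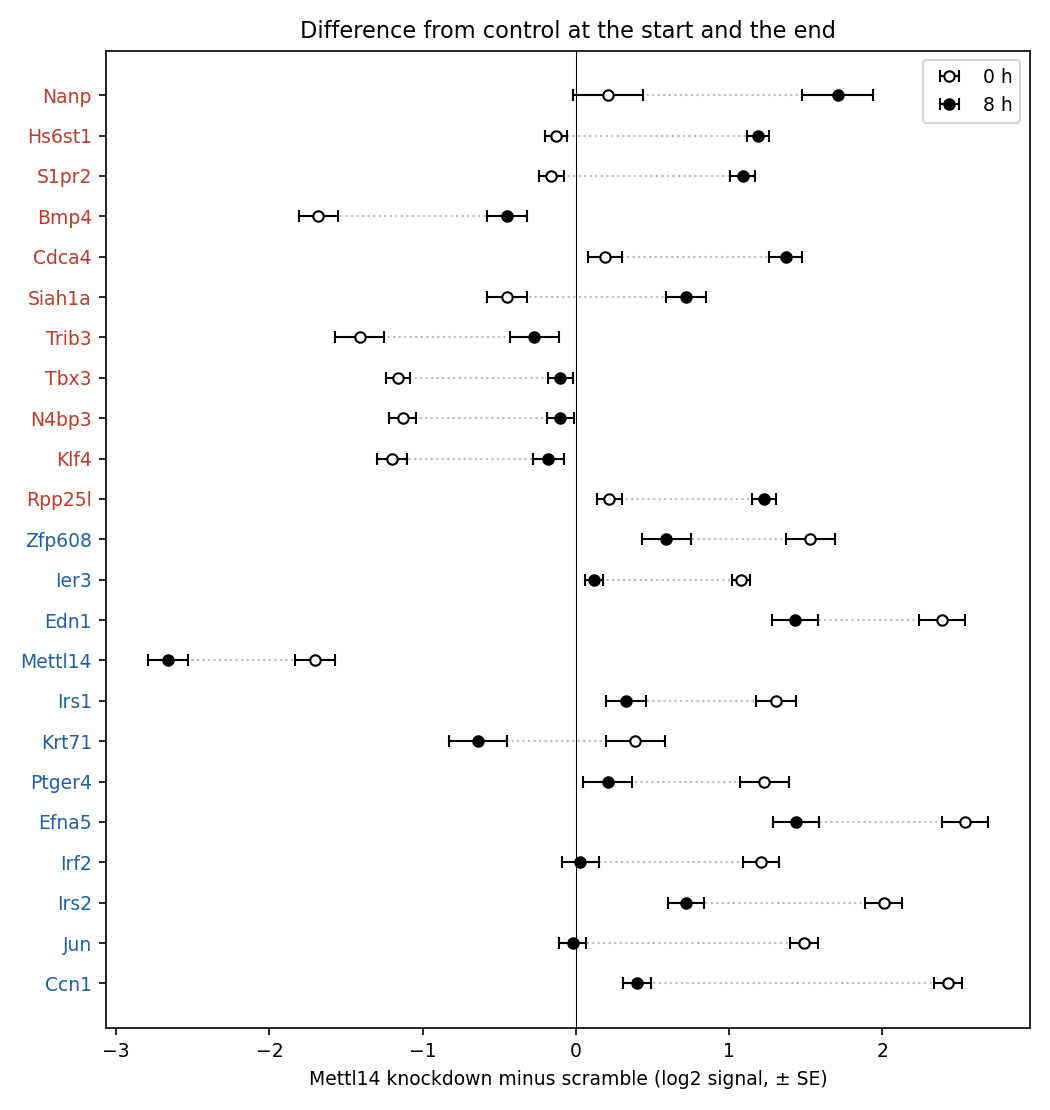
Mettl14 knockdown minus scramble at 0 h (open circles) and 8 h (filled circles) in log2 signal, with standard errors from limma, for 11 of the 12 largest positive (red names) and the 12 largest negative (blue names) differences in change. Bmp4, Trib3, Tbx3, N4bp3 and Klf4 move from negative values toward 0, Hs6st1 and S1pr2 move from near 0 to above 1, and Ccn1 and Jun move from 2.43 and 1.49 to 0.40 and -0.02.

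Of 26 genes of the stress responses of ATF4 and unfolded proteins, 4 were called higher (15.4%, against 3.58% of all genes) and none lower, and the median was 0.06. Atf4 itself kept 34.6% in scramble and 59.2% in the knockdown (0.77 ± 0.12, adjusted p = 0.00342). Herpud1, a factor of protein degradation at the endoplasmic reticulum, read 9.23 and 9.18 in scramble at 0 h and 7.85 and 7.77 at 8 h, against 8.96 and 8.92, then 8.33 and 8.43, in the knockdown. The order of the groups turned between the 2 times, and the value was 0.83 ± 0.09 (adjusted p = 0.000557). Chac1, a glutathione-degrading enzyme, was at 0.70 ± 0.15 (adjusted p = 0.0222), and its call was lost without any single array other than replicate 2 of the knockdown at 0 h or replicate 1 of scramble at 8 h (highest adjusted p = 0.0693, without replicate 2 of scramble at 0 h). Trib3, described above, was the remaining gene. When any 1 array was left out, 2 to 4 of the list were called, with 2 without replicate 1 of the knockdown at 0 h.

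Of 8 m6A writer genes, Wtap, Cbll1 and Rbm15b were called higher (37.5%) and Mettl14 lower (12.5%), with a median of 0.18. Over all genes 3.58% were higher and 1.41% lower. With the spread taken from the 8 arrays alone, no writer gene was called higher. Wtap, the recruiting subunit, read 9.50 and 9.41 in scramble at 0 h and 8.42 and 8.41 at 8 h. In the knockdown it read 9.40 and 9.45, then 8.94 and 9.07. The groups overlapped in range at 0 h and were apart at 8 h, and the value was 0.62 ± 0.09 (adjusted p = 0.00267). Cbll1, an adaptor of the writer complex, was at 0.45 ± 0.11 (adjusted p = 0.0383) and Rbm15b, an RNA-binding adaptor, at 0.44 ± 0.11 (adjusted p = 0.0432). Cbll1 lost its call without any single array other than replicate 1 of the knockdown at either time (highest adjusted p = 0.134), and Rbm15b without any other than replicate 1 of the knockdown at 0 h (highest adjusted p = 0.142). Both of these p-values were reached without replicate 2 of the knockdown at 0 h. Virma, Zc3h13, Rbm15 and Mettl16 had values of -0.13, 0.01, 0.25 and 0.10 and no call. Mettl3 shares its probe set with Tox4, which had a value of 0.03 ± 0.16 (adjusted p = 0.968 in a fit over all probe sets). Among 12 readers and demethylases only the demethylase gene Alkbh5 was called (8.33%, against 3.58% of all genes higher), at 0.31 ± 0.08 (adjusted p = 0.0418). Alkbh5 lost its call without any 1 of the 8 arrays.

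Further genes called higher lay in 3 lists. Mitochondrial ribosomal protein genes had 7 of 71 members higher (9.86%) and 1 lower, with a median of 0.07. Over all genes 3.58% were higher and 1.41% lower. Mrps34 and Mrps7 had no call over time in control and rose in the knockdown: Mrps34 was at 105% of its start in scramble and 164% in the knockdown (0.65 ± 0.11, adjusted p = 0.00539). Mrps7 was at 90.9% and 135% (0.57 ± 0.09, adjusted p = 0.00392). Mrps2 instead fell in both, to 56.5% and 82.8% (0.55 ± 0.08, adjusted p = 0.00264), and Mrpl50 fell in scramble, to 78.5%, with no call in the knockdown (0.44 ± 0.06, adjusted p = 0.0027). Mrps22 was the member called lower, at -0.61. This list had 4 to 6 members called higher when any 1 array was left out, and 4 without replicate 2 of the knockdown at 0 h.

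Signal feedback inhibitors had 5 of 30 members higher (16.7%, against 3.58% of all genes) and 2 lower (6.67%, against 1.41%). Errfi1, an inhibitor of the EGF receptor, stood at 202% of control at 0 h and 329% at 8 h (0.71 ± 0.11, adjusted p = 0.00499). Id2, an inhibitor of differentiation factors and a target of BMP signals, stood at 177% and 258% (0.54 ± 0.08, adjusted p = 0.00394). Dusp7 (0.51), Smad6 (0.53) and Socs3 (0.48) were the other three. Sp5, a target of WNT signals, and Dusp1 were called lower. Counts of higher members ran from 2 without replicate 2 of the knockdown at 0 h up to 9. p53 targets had 4 of 23 higher (17.4%) and 1 lower (4.35%), with a median of 0.20. Tnfrsf10b, a death receptor, kept 54.6% in scramble and 86.5% in the knockdown (0.66 ± 0.10, adjusted p = 0.00292). Dyrk3, a kinase, kept 18.7% and 30.5% (0.71 ± 0.11, adjusted p = 0.00413). Tigar, a regulator of glycolysis, was at 0.52 ± 0.11 (adjusted p = 0.0217), a call lost without any one of 5 arrays (highest adjusted p = 0.0823, without replicate 2 of the knockdown at 0 h), and Trp53inp1 was at 0.30. Without replicate 2 of the knockdown at 8 h, 2 of the list were called higher. Cdkn1a, the cell cycle inhibitor best known among p53 targets, was not called (-0.45 ± 0.16, adjusted p = 0.153).

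Zinc finger genes named Zfp, many of which encode repressors of repeats, had 16 of 324 members higher (4.94%) and 2 lower, close to the share over all genes. Their median was 0.14, and their levels over time had medians of -0.65 in scramble and -0.53 in the knockdown. Zfp592 (0.54 ± 0.09, adjusted p = 0.00458), Zfp141 (0.51 ± 0.09, adjusted p = 0.0111) and Zfp35 (0.52 ± 0.10, adjusted p = 0.0148) were among those higher, and Zfp280c (-0.53 ± 0.09, adjusted p = 0.00654) was lower. Zfp35 lost its call without any one of 3 arrays (highest adjusted p = 0.0624, without replicate 2 of the knockdown at 0 h). Leaving out that array left 3 of the list higher.

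Among the genes called lower, immediate early genes were the list with the most members. These genes are switched on within minutes of growth factor or serum signals, and their transcripts are short-lived. Of 32 members, 9 were called lower (28.1%, against 1.41% of all genes) and 2 higher, and the median was -0.30. The lower members were Ccn1, Jun, Ier3, Dusp1, Btg2, Atf3, Egr1, Ccn2 and Fosl2, and the higher ones Klf10 (0.56) and Mcl1 (0.39 ± 0.07, adjusted p = 0.0121). At 0 h, 20 of the 32 were higher and 3 lower in the knockdown than in scramble, where 19.4% of all genes were higher and 20.1% lower. Over 8 h, 20 fell in scramble with a list median of -0.46, and 24 in the knockdown with -0.89. Over all genes 21.6% fell in scramble and 19.4% in the knockdown. All of these arrays are also in the difference in change. The count of lower members was 7 to 10 when any 1 array was left out, and 4 with the spread taken from the 8 arrays alone.

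Ccn1, a matrix protein gene under YAP and serum signals, had the largest difference of all named genes. It read 9.48 and 9.18 in scramble at 0 h and 7.90 and 7.74 at 8 h. Knockdown arrays read 11.77 and 11.74 at 0 h and 8.26 and 8.18 at 8 h. The knockdown started at 537% of control and ended at 132%, so the groups stayed apart but drew close. Scramble kept 35.1% and the knockdown 8.63%, a difference of -2.02 ± 0.13 (adjusted p = 1.94e-05). Jun, a subunit of the AP-1 factor, moved in opposite directions. It read 8.08 and 8.05 in scramble at 0 h and 8.63 and 8.47 at 8 h, against 9.66 and 9.45, then 8.56 and 8.50, in the knockdown. The 8 h arrays of both groups overlapped after a start at 281% of control, and the value was -1.52 ± 0.13 (adjusted p = 0.000174).

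Ier3, an early gene of survival signalling, read 8.19 and 8.01 in scramble at 0 h and 7.57 and 7.55 at 8 h. In the knockdown it read 9.17 and 9.18, then 7.74 and 7.62. An excess to 211% of control at 0 h had shrunk to 109% at 8 h (-0.95 ± 0.09, adjusted p = 0.000258). Dusp1, a phosphatase that turns off MAP kinases, kept 33.3% in scramble and 19.6% in the knockdown (-0.77 ± 0.11, adjusted p = 0.003). Btg2, an antiproliferative cofactor of deadenylation that also stands in the lists of p53 targets and decay machinery, was at 107% of its start in scramble and 62.6% in the knockdown (-0.77 ± 0.12, adjusted p = 0.00458). Atf3 and Egr1, transcription factors of stress and growth signals, had values of -0.67 and -0.66, and Ccn2 and Fosl2 of -0.63 and -0.61, with adjusted p from 0.0111 to 0.0242. Each of these 9 genes was higher in the knockdown than in scramble at 0 h by at least 0.65 on the log2 scale. The 0 h arrays are part of the difference in change, so a high start is favoured among genes called lower. It is given beside the call only.

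Insulin signalling contributed 2 of the 12 largest negative values. Irs1 and Irs2, the adaptors below the insulin and IGF receptors, were the only members called among 12 genes of the insulin-like growth factor system. They are 16.7% of that list, against 1.41% of all genes called lower. Irs2 read 8.21 and 8.28 in scramble at 0 h and 7.42 and 7.37 at 8 h. Knockdown arrays read 10.34 and 10.17, then 7.94 and 8.29. Knockdown arrays were above scramble at both times, at 403% of control first and 164% at the end, and the value was -1.29 ± 0.17 (adjusted p = 0.00158). Irs1 went from 248% to 126% of control (-0.98 ± 0.19, adjusted p = 0.0128), and its signals were low, from 5.74 to 7.26. Igfbp3, a binding protein of the same system, stood at 387% and 398% of control at 0 h and 8 h and was not called (0.04 ± 0.11, adjusted p = 0.889).

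The 12 largest negative values also included 6 further genes, all with a mean signal below the median of the genes tested (8.19) and most with a high start in the knockdown. Irf2, an interferon regulatory factor, went from 231% to 102% of control (-1.18 ± 0.17, adjusted p = 0.0027). Efna5, an ephrin ligand, went from 581% to 272% (-1.10 ± 0.22, adjusted p = 0.0146), a call lost without replicate 2 of scramble at 0 h (adjusted p = 0.0601). Edn1, the endothelin ligand, went from 522% to 269% (-0.96 ± 0.21, adjusted p = 0.0225), and Ptger4, a prostaglandin E2 receptor, from 235% to 116% (-1.03 ± 0.22, adjusted p = 0.0219). Zfp608, a zinc finger gene, went from 290% to 151% (-0.94 ± 0.22, adjusted p = 0.0319). Krt71, a keratin of hair follicles, differed from these: it read 5.69 to 6.58 on all 8 arrays, was not called at 0 h and ended at 64.1% of control at 8 h (-1.03 ± 0.27, adjusted p = 0.0467). Edn1 and Ptger4 lost their calls without any one of 4 arrays, with a highest adjusted p of 0.0869 and 0.0856 without replicate 1 of scramble at 0 h. Zfp608 lost its call without any single array other than replicate 1 of scramble at 8 h (highest adjusted p = 0.0926), and Krt71 without any other than replicate 2 of the knockdown at 8 h (highest adjusted p = 0.143).

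Of 30 genes of DNA methylation and Polycomb, 3 were lower (10%, against 1.41% of all genes) and none higher, with a median of 0.05. Eed, a core subunit of Polycomb repressive complex 2, read 11.53 and 11.49 in scramble at 0 h and 11.14 and 11.21 at 8 h. In the knockdown it read 10.94 at 0 h on both arrays and 10.13 and 10.10 at 8 h. The knockdown was below control throughout and the gap widened, from 67.5% to 48.1% of control (-0.49 ± 0.06, adjusted p = 0.00134). Pcgf6, a subunit of a variant Polycomb repressive complex 1, went from 94.5% to 67.0% of control (-0.50 ± 0.08, adjusted p = 0.00359). Suz12, the partner of Eed, went from 54.8% to 43.0% (-0.35 ± 0.09, adjusted p = 0.0395), a call lost without any single array other than replicate 2 of the knockdown at 8 h (highest adjusted p = 0.142, without replicate 1 of scramble at 0 h).

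Primed epiblast genes, which mark the state after naive pluripotency, had 2 of 17 members lower (11.8%, against 1.41% of all genes) and none higher. Pou3f1, a POU factor, went from 228% to 149% of control (-0.61 ± 0.13, adjusted p = 0.0189), and Zic2, a zinc finger factor, from 182% to 124% (-0.55 ± 0.10, adjusted p = 0.0111). The Pou3f1 call was lost without any one of 4 arrays (highest adjusted p = 0.076, without replicate 1 of scramble at 0 h). Of 20 trophectoderm genes, Krt8, a keratin of simple epithelia, was lower (5%) and went from 506% to 382% of control (-0.40 ± 0.07, adjusted p = 0.00598). Gata2 (0.57 ± 0.12) and Fgfr2 (0.52 ± 0.11), a transcription factor and an FGF receptor of that lineage, were higher (10%, against 3.58% of all genes). Both calls were lost without any one of 5 arrays (highest adjusted p = 0.0664 and 0.0697, without replicate 2 of the knockdown at 0 h).

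Of 17 mesoderm genes, Bmp4 was higher and the ligand gene Wnt3 lower, at -0.55 ± 0.13 (adjusted p = 0.0294). Each is 5.88% of that list, where 3.58% of all genes were higher and 1.41% lower. Of 19 endoderm genes, Lrp2, an endocytic receptor, was lower at -0.29 ± 0.07 (adjusted p = 0.0291) and the basement membrane collagen gene Col4a1 at -0.44 ± 0.10 (adjusted p = 0.0289), which is 10.5% of that list. Of 41 cell cycle genes, the cyclin gene Ccna2 and the spindle motor gene Kif11 were lower (4.88% of the list), both at -0.31 ± 0.07 (adjusted p = 0.0342 and 0.0316). None of these 5 calls from Wnt3 to Kif11 held throughout. Each was lost without any one of 4 to 8 arrays, and the highest adjusted p was 0.112 for Wnt3, 0.0877 for Lrp2, 0.104 for Col4a1, 0.131 for Ccna2 and 0.114 for Kif11. These were reached without replicate 2 of scramble at 8 h for Wnt3, without replicate 2 of the knockdown at 0 h for Col4a1, and without replicate 1 of scramble at 0 h for the other three.

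**Figure D4:**
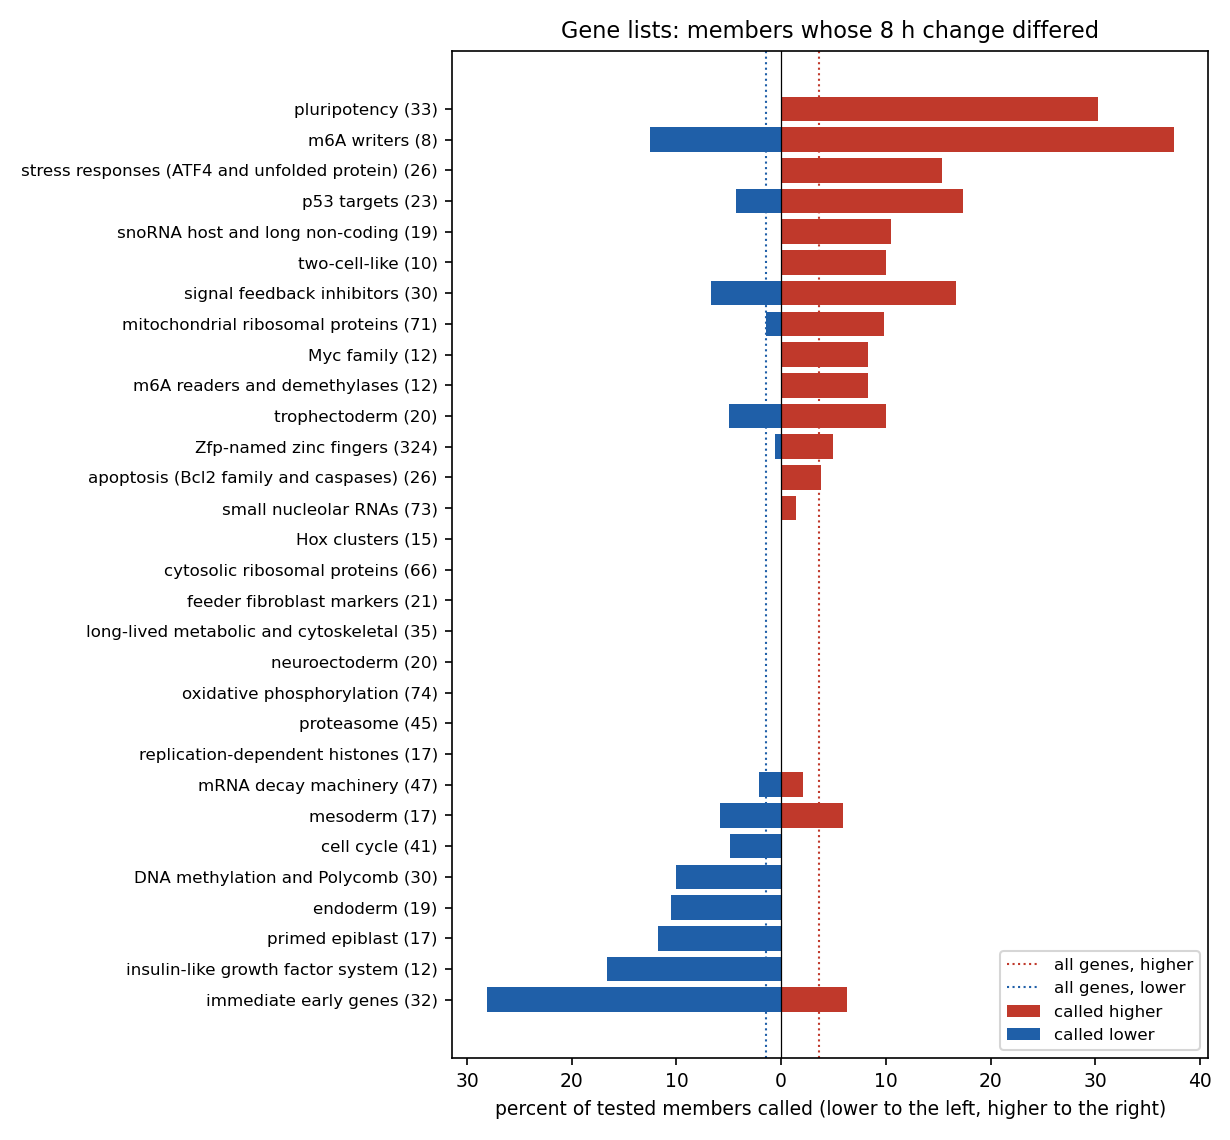
Percent of the tested members of each gene list called higher (red, to the right) or lower (blue, to the left) in the difference in change, with the number tested in brackets and dotted lines at the percentages over all genes (3.58 and 1.41). Pluripotency reaches 30.3% higher with none lower, and immediate early genes 28.1% lower; the m6A writer list has only 8 members.

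Zfas1 (0.73 ± 0.15, adjusted p = 0.0201) and Rian (0.37 ± 0.10, adjusted p = 0.0473), transcripts that carry small nucleolar RNAs in their introns, were higher among 19 such hosts and long non-coding RNAs (10.5%, against 3.58% of all genes). Snord52 was the 1 member higher among 73 small nucleolar RNAs (1.37% of them, at 0.67 ± 0.15, adjusted p = 0.0248). Of 47 genes of mRNA decay, Cnot8, a deadenylase subunit, was higher at 0.35 ± 0.09 (adjusted p = 0.0467) and Btg2 lower. Each is 2.13% of that list, close to the 3.58% of all genes higher and 1.41% lower. Zfas1, Rian, Snord52 and Cnot8 lost their calls without any one of 4, 6, 7 and 6 arrays, with a highest adjusted p of 0.0721, 0.169, 0.0761 and 0.157. The array left out was replicate 2 of the knockdown at 0 h for Zfas1 and Cnot8, replicate 1 of scramble at 0 h for Rian and replicate 2 of the knockdown at 8 h for Snord52. Mcl1 was the only member higher among 26 apoptosis genes (3.85%, close to the share over all genes). Eif1a (0.71 ± 0.09, adjusted p = 0.00161) was the only member higher among 10 two-cell-like genes (10%).

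No member was called, in either direction, of 66 cytosolic ribosomal protein genes, 74 oxidative phosphorylation genes, 45 proteasome genes, 35 long-lived metabolic and cytoskeletal genes, 17 replication-dependent histone genes, 15 Hox genes and 20 neuroectoderm genes. Their medians ran from -0.16 for Hox genes to 0.00 for oxidative phosphorylation. Several of these lists moved strongly with time in both groups: 15 of 17 histone genes fell in scramble and in the knockdown, with medians of -1.88 and -2.18. Over all genes 21.6% fell in scramble and 19.4% in the knockdown. Actb and Gapdh, common reference genes, both had a difference in change of 0.00, with standard errors of 0.11 and 0.06.

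By 4 h the same contrast called 11 genes higher and 5 lower, 0.0744% and 0.0338% of those tested, and 1273 genes had an unadjusted p under 0.05. All 16 were also called at 8 h in the same direction. The 4 h and 8 h contrasts share their 0 h arrays, so their values are set side by side only. Hs6st1 was at 0.91 ± 0.10 at 4 h and 1.31 at 8 h, Rpp25l at 0.78 ± 0.11 and 1.01, and Klf2 at 0.76 ± 0.12 and 0.78. Ccn1 was at -1.88 ± 0.13 and -2.02, Ier3 at -0.99 ± 0.09 and -0.95, and Jun at -1.08 ± 0.13 and -1.52. The remaining genes called lower at 4 h, named after their values were seen, were Irf1, an interferon regulatory factor (-0.62 ± 0.09, and -0.80 at 8 h), and Nmd3, an export adaptor of ribosomal subunits (-0.55 ± 0.07, and -0.71 at 8 h). Over the genes called at 8 h the 4 h medians were 0.23 for the 530 and -0.27 for the 208. The difference in change from 4 h to 8 h, tested on its own, called no gene in limma, with 1222 genes at an unadjusted p under 0.05. When any 1 of the 8 arrays of the 4 h contrast was left out, 2 to 3 genes were higher and 2 to 4 lower.

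The same contrast with Mettl3 knockdown cells in place of Mettl14 cells called 364 genes higher (2.46%) and 149 lower (1.01%). Both contrasts use the same scramble arrays, so calls they share are not independent. With that limit, 282 genes were higher in both, 53.2% of the Mettl14 calls and 77.5% of the Mettl3 calls, and 85 were lower in both, 40.9% and 57.0%. Side by side, Mettl14 and Mettl3 values were 1.31 and 1.04 for Hs6st1, 1.25 and 1.19 for S1pr2, 1.02 and 1.03 for Klf4, -2.02 and -1.74 for Ccn1, and -1.52 and -1.43 for Jun. Others lay further apart, at 1.04 and 0.51 for N4bp3, 0.64 and 0.32 for Pou5f1 and 0.49 and 0.27 for Esrrb. Pou5f1 and Esrrb were not called with Mettl3 knockdown (limma adjusted p = 0.299 and 0.243). Of 33 pluripotency genes, 5 were higher and 1 lower with Mettl3 knockdown (median 0.07), against 10 and 0 with Mettl14 knockdown (median 0.17). The Mettl3 counts were 166 higher and 56 lower without replicate 1 of the Mettl3 knockdown at 8 h, and 192 and 70 without its replicate 1 at 0 h. Leaving out scramble replicates 1 and 2 at 0 h in turn gave 173 and 69, then 211 and 71, and leaving out scramble replicate 2 at 8 h gave 200 and 58.

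The 2 knockdowns were then compared without the scramble arrays, as the 8 h change with Mettl14 knockdown minus that with Mettl3 knockdown. No gene was called by limma in either direction, and 798 genes (5.40%) had an unadjusted p under 0.05. This does not show that the changes were alike, and some intervals were wide. The difference for Klf4 was -0.01 with a 95% confidence interval from -0.32 to 0.29, for Jun -0.08 (-0.37 to 0.21) and for S1pr2 0.06 (-0.19 to 0.31). For Cdca4 it was 0.61 (0.29 to 0.94) and for Siah1a 0.62 (0.22 to 1.02), and both unadjusted intervals lay above 0 while the adjusted p was 0.51 and 0.811. The Mettl14 transcript, targeted in only 1 of the 2 knockdowns, had the value -0.86 (-1.27 to -0.45, adjusted p = 0.374). Leaving out replicate 2 of the Mettl14 knockdown at 8 h gave 1 gene higher and 4 lower, leaving out any other single array gave at most 1, and other settings of the fit gave at most 7 in either direction.

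Where the knockdown stood before the 8 h divides the called genes. Of the 530 called higher, 155 were higher than control at 0 h, 149 were lower and 226 had no call. At 8 h, 410 were higher than control, 35 lower and 85 had no call. Of the 149 that started lower, 85 had no call at 8 h, 35 were still lower and 29 were higher. Of the 208 called lower, 93 were higher than control at 0 h, 61 lower and 54 had no call, and at 8 h 43 were higher, 121 lower and 44 had no call. Over all genes tested, 19.4% were higher and 20.1% lower at 0 h, and 23.8% and 19.8% at 8 h. Each of these comparisons shares arrays with the difference in change.

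The repeat set, which shares no array with these groups, gave the starting difference a separate measurement. It held 2 Mettl14 knockdown arrays and 2 arrays of a scramble control of its own at 0 h. The description of 1 of these control arrays says 4 h, whereas the other labels of that array say 0 h. Over all genes 19.4% were higher and 16.9% lower there. No share was computed over all genes with the same starting call, so the shares below are not read as particular to the called genes. Of the 149 genes called higher that started lower, 80 (53.7%) were lower in the repeat set and 8 (5.37%) higher. Of the 155 that started higher, 105 (67.7%) were higher and 5 lower. Of the 226 with no call at the start, 60 (26.5%) were higher and 26 (11.5%) lower. Of the 93 genes called lower that started higher, 50 (53.8%) were higher and 3 lower, and of the other 115, 7 were higher and 46 (40%) lower.

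Several named genes started on the same side there, with differences of other sizes. Ccn1 read 9.86 and 9.89 in the repeat control and 11.11 and 11.16 in the repeat knockdown, and both knockdown arrays lay above control (1.26 ± 0.05, adjusted p = 2.11e-05, against 2.43 in the time course). Jun read 9.64 and 9.63, then 10.41 and 10.44 (0.79 ± 0.05, adjusted p = 8.4e-05, against 1.49). Klf4 read 10.10 and 10.11, then 9.60 and 9.72, so that the knockdown was below control (-0.44 ± 0.06, adjusted p = 0.00134, against -1.20). Other named genes called at 0 h in the time course had no call in the repeat set. Bmp4 had a repeat difference of -0.08 (limma adjusted p = 0.215), against -1.68 in the time course. Id2 was at 0.08 against 0.82, Atf4 at -0.02 against -0.55 and Herpud1 at 0.01 against -0.26 (adjusted p = 0.216, 0.873 and 0.92). Gata2 and Zfas1 had the opposite sign, at 0.40 against -0.57 and -0.11 against 0.34 (adjusted p = 0.107 and 0.196). Fgf4 was lower by more in the repeat set, at -1.19 against -0.49. Hs6st1 and S1pr2, which had no call at 0 h in the time course, were at 0.11 and 0.06 in the repeat set (adjusted p = 0.161 and 0.453). The repeat set has no 8 h arrays, so the difference in change itself was measured once.

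**Figure D5:**
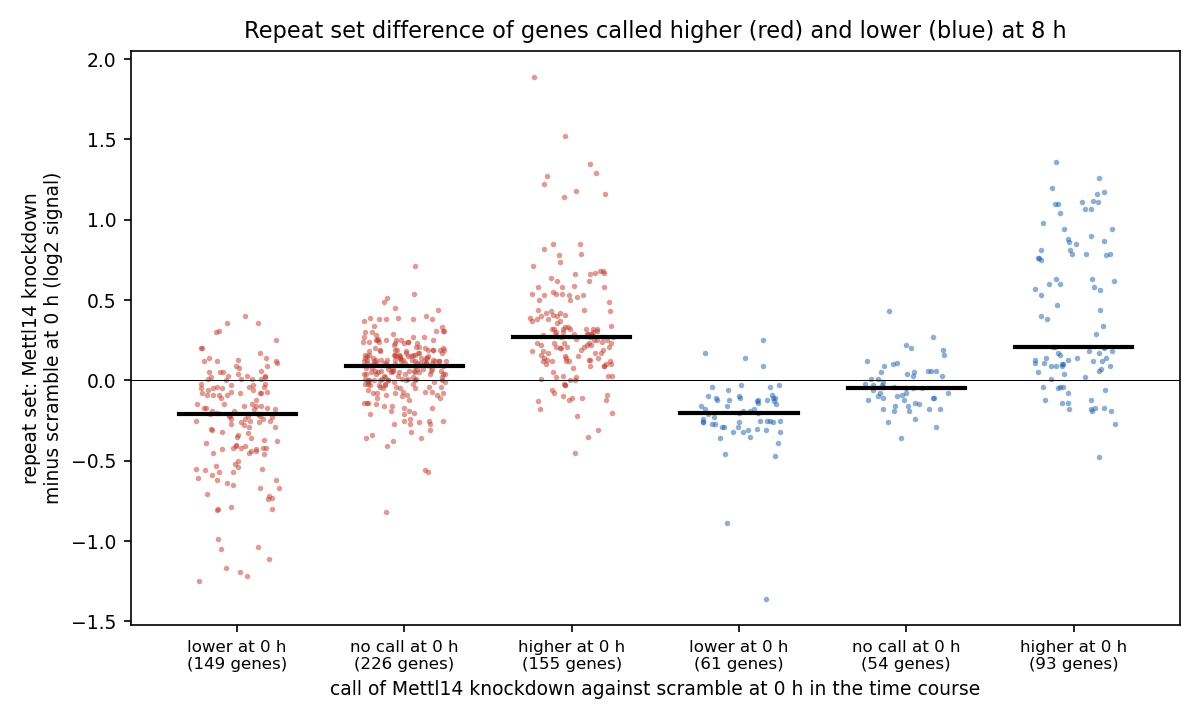
Mettl14 knockdown minus scramble at 0 h in the repeat set (log2 signal, y axis) for genes called higher (red) and lower (blue) in the difference in change, split by their call at 0 h in the time course; points are genes with random horizontal spread and bars are medians. Genes that started lower lie mostly below 0 in the repeat set, and genes that started higher lie mostly above it.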

How the data were processed

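RNA levels were measured on Affymetrix Mouse Gene arrays. The deposited values are log2 signals per probe set, made by the authors with RMA in oligo, per the submitters' processing notes (versions and genome build not given in the sources used here). RMA corrects background, equalises array distributions and summarises probes. Of 41345 probe sets, 23521 were listed with 1 gene symbol, giving 22180 genes. The brightest probe set stood for a gene. The dimmest 7393 genes (a fraction of 0.333) were left out.

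limma 3.58.1 in R 4.3.3 (lmFit, eBayes, two-sided) was fitted over the 18 time course arrays (9 residual degrees of freedom) and separately over the 8 repeat set arrays (4). P-values were Benjamini-Hochberg adjusted over 14787 genes, with a threshold of 0.05. ± is limma's standard error, and percentages of a level are back-transformed means of 2 arrays. The pipeline was tested on simulated data. Log2 changes of dim genes are understated.

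Named genes are the 12 largest calls per direction, leaving out unnamed genes, up to 4 called members with the smallest adjusted p of each of 30 gene lists, and 12 fixed genes. Other called list members were named where a count needed them, and 1 gene chosen by this rule is not reported here. Members, lists and rules were chosen with earlier results of these data known. Alternatives were the dim-gene filter, probe set averaging, trend and array-weighted fits, a replicate block, 2 scalings, other array sets and omission of single arrays. The number of arrays limits precision.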

Additional observations from a re-analysis of the deposited data

Results flagged for a closer look

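The 8 h change differed between knockdown and control, by the test of that difference itself, for 530 genes called higher and 208 called lower. Of the 71 named genes called, 15 kept their call in every alternative that tested them, and 14 of these are given here. That was 18 alternatives, or 17 for Irf2, which a stricter filter on dim genes left out. Higher were Hs6st1 (1.31), S1pr2 (1.25), Cdca4 (1.18), Tbx3 (1.06), Klf4 (1.02), Rpp25l (1.01), Herpud1 (0.83) and Mycn (0.61). Lower were Ccn1 (-2.02), Jun (-1.52), Irs2 (-1.29), Irf2 (-1.18), Ier3 (-0.95) and Dusp1 (-0.77). In the 16010 probe sets not listed with a gene, which the gene comparisons do not use, a fit over all 41345 probe sets called 16 higher and 9 lower.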

How the results depend on the processing

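The number of genes whose 8 h change differed rests on few arrays. When single arrays were omitted, with a lone array assumed to vary like the other groups, 242 to 593 genes were higher and 85 to 190 lower. The count was 254 higher and 91 lower with no filter on dim genes, 325 and 105 with array weights, 796 and 372 in a fit over all 26 arrays, and 53 and 12 with the spread taken from the 8 arrays alone. Equal medians of the long-lived list gave 97 lower. With the replicate number as a block it was 481 and 181, of which 459 and 174 were shared with the fit without it, 65 of the 71 named genes kept their call, and the 4 h count was 5 higher. Pou5f1, Cbll1, Rbm15b, Cnot8, Alkbh5 and Krt71 were not called under it (limma adjusted p of 0.0511 to 0.0621), so that 1 of 8 writer genes, no reader or demethylase gene and no mRNA decay gene was then called higher. The other counts over all genes stayed within 1.5 times. The deviations of same-numbered replicates had correlations from -0.44, between the knockdown at 8 h and at 0 h, to 0.19. Each group has only a single replicate difference, so these values cannot decide whether arrays were paired by number. Whether they were paired in another way was not tested. The causes were not tested.

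The 4 h contrast had 2 to 3 genes higher and 2 to 4 lower on omission of single arrays. It had 2 and 3 with no filter, 23 and 13 with a stricter filter on dim genes, 40 and 30 with trend and robust fitting, 21 and 14 with array weights, 53 and 39 over 26 arrays, 1 and 1 over the compared groups, 7 higher with probe set means and 29 lower after a second quantile normalization. The Mettl3 contrast ranged from 166 to 479 higher and 56 to 154 lower on omission. It had 181 and 70 with no filter, 666 and 306 over 26 arrays, 46 and 8 over the compared groups, 244 lower with trend and robust fitting and 75 lower with equal long-lived medians. Mettl14 against Mettl3 had 0 to 1 higher and 0 to 4 lower on omission, 2 and 3 with a stricter filter on dim genes, 6 and 7 with trend and robust fitting, 2 and 2 after quantile normalization, and 7 and 5 over 26 arrays.

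On omission the 8 h against 0 h counts were 4577 to 5201 higher and 2805 to 3005 lower in scramble, and 4675 to 4903 and 2415 to 2757 in the knockdown. Knockdown against scramble gave 2283 to 2428 higher and 2114 to 2680 lower at 0 h, 2896 to 3267 and 2328 to 2770 at 8 h, and 2075 to 2152 and 1646 to 1760 in the repeat set. Equal long-lived medians gave 2523 higher in scramble over 8 h, 1632 lower at 8 h and 1397 lower in the repeat set.

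No named gene reversed. Of the 71 called, 26 lost their call in 1 of the alternatives that tested them (16 for Irs1 and 18 for the others), and 14 kept it in fewer than 9. Krt71 and Irs1 had signals near the filter on dim genes, and Nanp was below that level in scramble at 8 h, which limits their precision.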
